A study of Mus musculus with 12 samples.

Results

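CD8+ T cells sorted from untreated MC38 tumours are described here from the 3 samples labelled Nontreated, of 12 samples in the series. The tumours, of a mouse colon carcinoma line implanted into C57BL/6J mice, were digested, and cells were enriched on CD45 and sorted for CD8. No genetic change is named for the mice, and the labels give neither age nor the interval between implantation and collection, and do not say whether the 3 samples came from separate mice or pools. The other 9 samples were irradiated with 20 Gy and are not used below. RNA was counted with a NanoString nCounter panel of 773 mouse probes on immune exhaustion, in which a barcoded probe pair counts single RNA molecules without amplification. With 1 group there is no test, and every spread below is an SD over the 3 samples (n = 3), which may be technical.

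CD8+ T cells recognise peptides on MHC class I through a T cell receptor held in the CD3 complex, with CD8 as co-receptor, and kill through perforin and granzymes. In tumours, lasting stimulation drives many of them into exhaustion, a state with several inhibitory receptors on the surface, the factor TOX and weaker cytokine production. A smaller stem-like pool marked by TCF-1, the product of Tcf7, is known to maintain the exhausted cells.

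The deposited values are log2 normalized counts, so a step of 1 is a 2-fold step, and they are called levels here. A rank orders the probes from 1, the highest mean level. Molecules are counted once whatever the transcript's length, but probes may capture their targets unequally, so ranks order probe counts, not transcripts. Recovered molecule counts totalled 366987, 467904 and 118694 in replicates 1, 2 and 3. A probe was called above background when it exceeded the mean plus 2 SD of 25 background probes, whose targets belong to liver, pituitary, embryo and other tissues or to a virus. That threshold lay at 4.23, 4.18 and 5.27 in replicates 1, 2 and 3, or 30.1, 34.5 and 19.3 molecules. It was passed in all 3 samples by 413 of the 773 probes (53.4%), in at least 1 by 477 (61.7%) and in none by 296 (38.3%). Just inside were Fcer1g, Il1rl1, Icosl, E2f1 and Lyn, by 0.02 to 0.05 in their lowest sample. Just outside were E2f5, Fadd, Klf2, Rras and Inppl1, each 0.02 short in 1 sample. Bulk levels cannot tell fewer cells of a type from less RNA per cell.

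**Figure D1:**
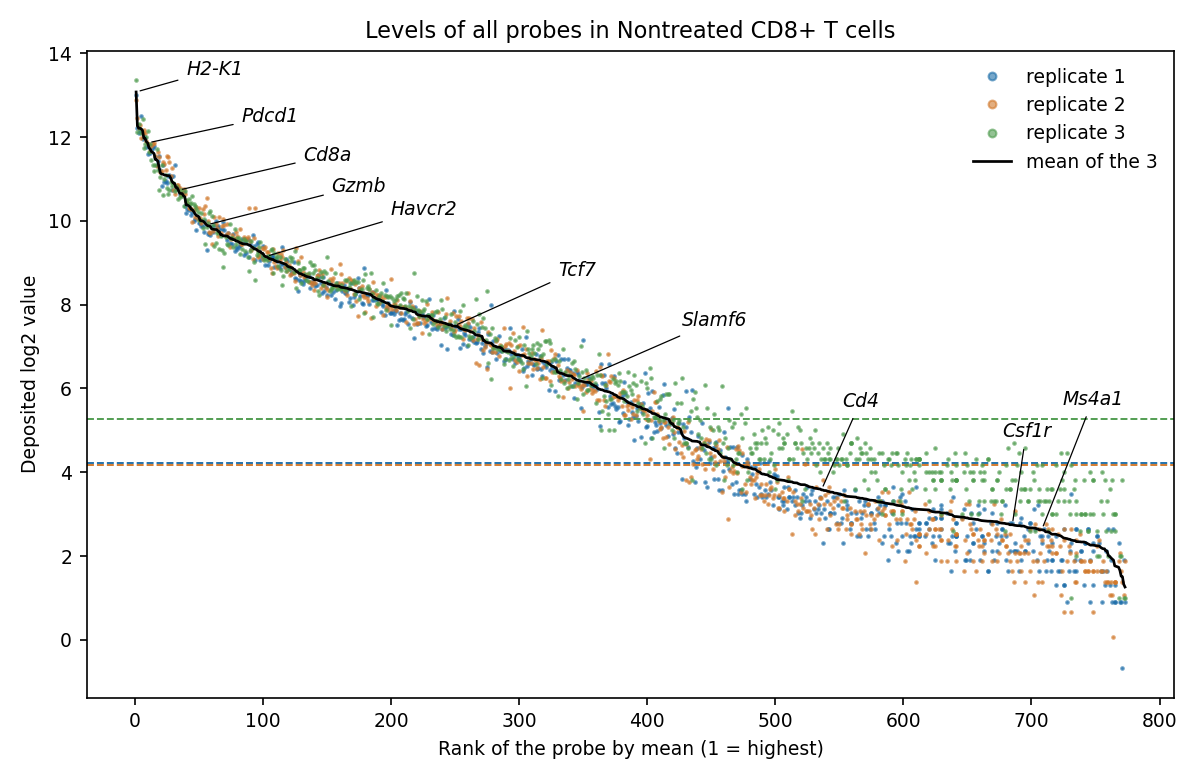
All 773 probes in order of their mean over the 3 Nontreated samples (x axis, rank; y axis, deposited log2 value). Points are samples, the black line is the mean and dashed lines are each sample's background threshold, which is highest, at 5.27, in replicate 3. The curve runs from H2-K1 at 13.07, through Pdcd1 and Cd8a, to Cd4, Csf1r and Ms4a1 under the thresholds.

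The upstream sequences of a few genes are shown first, because they show the motif and base content that the lists below are described by. A RefSeq promoter (GRCm38.p6) was listed for 570 of the probed genes, and the 250 bases before the first start listed were searched. The hexamer TGTGGT, the core read by RUNX factors, which are known to set the CD8 lineage, was sought on both strands. The 4 killing genes below carry it, with every match in capitals. Gzmc and Gzmb encode granzymes, Nkg7 a granule membrane protein, and Prf1 perforin.
Gzmc (chr14:56234658-56234907, minus strand): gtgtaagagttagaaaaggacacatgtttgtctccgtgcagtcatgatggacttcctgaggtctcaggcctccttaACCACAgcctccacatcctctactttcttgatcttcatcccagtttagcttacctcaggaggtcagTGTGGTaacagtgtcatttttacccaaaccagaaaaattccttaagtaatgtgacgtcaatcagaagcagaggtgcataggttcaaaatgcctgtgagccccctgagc
Gzmb (chr14:56262335-56262584, minus strand): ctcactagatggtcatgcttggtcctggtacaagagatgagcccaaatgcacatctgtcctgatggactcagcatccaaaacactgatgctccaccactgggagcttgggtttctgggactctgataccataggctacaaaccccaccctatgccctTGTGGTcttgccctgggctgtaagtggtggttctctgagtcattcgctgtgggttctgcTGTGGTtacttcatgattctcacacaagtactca
Nkg7 (chr7:43436888-43437137, plus strand): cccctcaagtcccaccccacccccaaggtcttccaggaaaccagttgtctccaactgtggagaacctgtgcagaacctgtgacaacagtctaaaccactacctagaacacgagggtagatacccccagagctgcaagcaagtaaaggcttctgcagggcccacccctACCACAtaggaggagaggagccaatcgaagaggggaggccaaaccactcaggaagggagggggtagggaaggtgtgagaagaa
Prf1 (chr10:61297586-61297835, plus strand): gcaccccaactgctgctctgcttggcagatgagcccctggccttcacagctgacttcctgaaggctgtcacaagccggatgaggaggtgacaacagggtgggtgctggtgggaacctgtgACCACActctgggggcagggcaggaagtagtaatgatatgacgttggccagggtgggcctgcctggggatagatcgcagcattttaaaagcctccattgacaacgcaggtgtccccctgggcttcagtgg
The hexamer stood in 12 of 19 upstream windows of the cytotoxic and effector list (63.2%) and in 7 of 17 of the inhibitory receptors (41.2%), beside 15.6% of the 570 panel windows and 14.2% of 27025 windows of all genes. Of the 12, 8 were among the 9 granzyme genes, which arose by duplication and share sequence. Outside the granzymes it stood in 4 of 10. Gzmg, with 2 matches, was not above background in any sample, while Ifng, with none, ranked 25. A match is a string of letters in this window and no evidence of binding.

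CpG pairs, in capitals in the next sequences, are known to be dense upstream of many widely used genes, a class that was not measured as a set here. Ldha, which encodes lactate dehydrogenase A, has 25 of them and Cd8a, the co-receptor's alpha chain, has 0, at similar levels of 10.90 and 10.73.
Ldha (chr7:46845554-46845803, plus strand): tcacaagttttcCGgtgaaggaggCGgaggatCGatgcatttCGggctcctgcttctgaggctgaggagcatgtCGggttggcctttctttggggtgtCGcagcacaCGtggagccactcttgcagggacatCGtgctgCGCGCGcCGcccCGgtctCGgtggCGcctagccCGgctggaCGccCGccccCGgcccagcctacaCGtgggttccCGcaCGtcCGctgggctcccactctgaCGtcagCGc
Cd8a (chr6:71373177-71373426, plus strand): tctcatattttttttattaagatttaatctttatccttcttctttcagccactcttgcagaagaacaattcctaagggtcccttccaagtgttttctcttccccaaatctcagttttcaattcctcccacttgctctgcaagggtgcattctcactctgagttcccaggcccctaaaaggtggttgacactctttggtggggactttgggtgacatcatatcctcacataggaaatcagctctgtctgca
Windows of genes above background in all 3 samples had a median of 14 CpG pairs (317 genes), and those above background in none had 6 (205 genes). The median was 11 over the 570 panel windows and 6 over all genes. Medians were lower in 3 T cell lists, at 3.5 for the T cell receptor and CD8 genes (6 windows), 3 for inhibitory receptors and 3 for cytotoxic genes. Other motifs were searched on both strands too. The GC box GGGCGG, which itself holds a CpG, stood in 58.0% of windows above background and 42.4% of those not above it. Over the panel it stood in 51.2%, and over all genes in 32.9%. In the same order, TATAAA stood in 6.94%, 12.7%, 10.2% and 13.0%, and the AP-1 site TGANTCA in 6.62%, 7.80%, 6.84% and 6.87%.

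The genes that define a CD8 T cell were near the top of the panel in every sample. All 10 measured members of the T cell receptor and CD8 list were above background, beside 53.4% of all probes. Their median level was 11.03, beside 5.64 over all probes. Trbc1/2, the constant part of the receptor's beta chain, was at 11.95, 12.10 and 12.42 in replicates 1, 2 and 3 (rank 6). Trac, the alpha constant region, was at 11.51, 11.55 and 11.32, and Cd3d, a CD3 chain, at 11.70, 11.78 and 11.46. Cd3e averaged 10.65 ± 0.07. Cd8b1 was at 11.33, 11.40 and 10.61, and Cd3g at 11.54, 11.53 and 10.74, so these chains were lowest in replicate 3. The list made up 9.49% of all molecules in replicate 1 (95% Wilson interval 9.39 to 9.58), 9.67% in replicate 2 (9.59 to 9.76) and 8.57% in replicate 3 (8.41 to 8.73). These intervals cover counting error only.

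Of the signalling chain below the receptor, 18 of 18 measured members were above background, beside 53.4% of all probes. The kinase genes Lck (10.80 ± 0.04), Zap70 (10.17 ± 0.16) and Fyn (10.09 ± 0.20) ranked 32, 47 and 50. Brakes of the same pathway stood beside them. Ptpn22, a phosphatase that dampens receptor signals, averaged 11.14 ± 0.08 (rank 20), and Cblb, a ubiquitin ligase that limits activation, 10.28 ± 0.14. Dgka and Dgkz, kinases that remove diacylglycerol, averaged 9.80 ± 0.09 and 9.26 ± 0.22.

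Most probes of B cells, monocytes, natural killer cells and gamma-delta T cells were at background in every sample, beside 38.3% of all probes. So were 5 of 10 probes of CD4 and regulatory T cells and 3 of 6 of tumour and stroma. Most of the few dendritic cell probes were not. Il2ra (9.97 ± 0.22) and Gata3 (7.74 ± 0.15) of the CD4 list and Pecam1 (5.93 ± 0.20) of the stroma list passed in all 3 samples. Cd4 was at 3.02, 3.39 and 4.33, or 13, 20 and 10 molecules, and was below the threshold in each sample. The same held for Ms4a1 of B cells, Csf1r and Cd14 of monocytes, and Ncr1 of natural killer cells, which had 4 to 30 molecules. Foxp3, of regulatory T cells, was at 3.57, 4.77 and 5.00 and passed in replicate 2 alone. Of 13 gamma-delta receptor probes 12 were at background, among them Trdc, the delta constant region. The exception, Trgc1/2/3, read 74, 38 and 45 molecules, and gamma chain RNA is also known in alpha-beta T cells. The 5 measured CD3 and CD8 chains averaged 11.20, 11.24 and 10.81, against 3.41, 3.31 and 4.56 for the 10 B and plasma cell probes, a difference of 7.32 ± 0.93. They exceeded the 9 macrophage and monocyte probes by 6.71 ± 0.92 and the 6 tumour and stroma probes by 7.23 ± 0.69, with the smallest gaps in replicate 3. They exceeded the 4 dendritic cell probes by 5.53 ± 0.63 and the 4 natural killer probes, which include Klrd1, by 5.26 ± 0.63. The background probes averaged 2.51, 2.42 and 3.72, also highest in replicate 3, and their part in these gaps was not tested.

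Some transcripts of antigen-presenting cells were present all the same. H2-Aa, an MHC class II chain, was at 8.86, 8.19 and 7.80, and H2-Ab1, its partner, at 7.99, 7.05 and 6.21. Both were highest in replicate 1 and lowest in replicate 3, as were H2-Eb1 (5.93, 5.46 and 4.81) and the chemokine gene Cxcl9 (6.36, 5.46 and 4.71). H2-Eb1 and Cxcl9 were below the threshold in replicate 3. Of the 4 dendritic cell probes, 3 were above background in all 3 samples (beside 53.4% of all probes). Cd80, a ligand of CD28, was at 7.17, 5.46 and 5.86, Itgax, the integrin chain CD11c, at 6.15, 5.37 and 5.71, and the chemokine gene Ccl22, which passed in 1 sample, at 5.93, 3.82 and 4.71. Siglech, a marker of plasmacytoid dendritic cells, was at 5.07, 5.28 and 6.13, so 3 of the 4 were highest in replicate 1 and Siglech in replicate 3. Of the 8 class II probes 5 were highest in replicate 1, 1 in replicate 2 and 2 in replicate 3, a count not made over all probes. Il1b, an inflammatory cytokine of myeloid cells, was at 5.96, 4.46 and 3.81, below the threshold in replicate 3. Cxcl9 and Il1b come from the lists of chemokine and cytokine ligands. Of those lists, 7 of 14 and 26 of 40 probes were highest in replicate 3, as were 8 of 9 macrophage and monocyte probes. Class II probes took 0.405% of the molecules in replicate 1 (interval 0.385 to 0.426), 0.230% in replicate 2 (0.216 to 0.244) and 0.176% in replicate 3 (0.154 to 0.202). Ciita, the class II master regulator, was at background. Of the macrophage list, Cd86, Tyrobp, Cd68 and Fcer1g passed, the other 5 did not, and its share was 0.125%, 0.124% and 0.183%. Ighm, the IgM heavy chain, averaged 7.73 ± 0.26 and Igkc, the kappa chain, 6.34 ± 0.32, with 0 of the other 4 immunoglobulin probes above background in all 3 samples. The part of such cells in any level below was not tested.

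**Figure D2:**
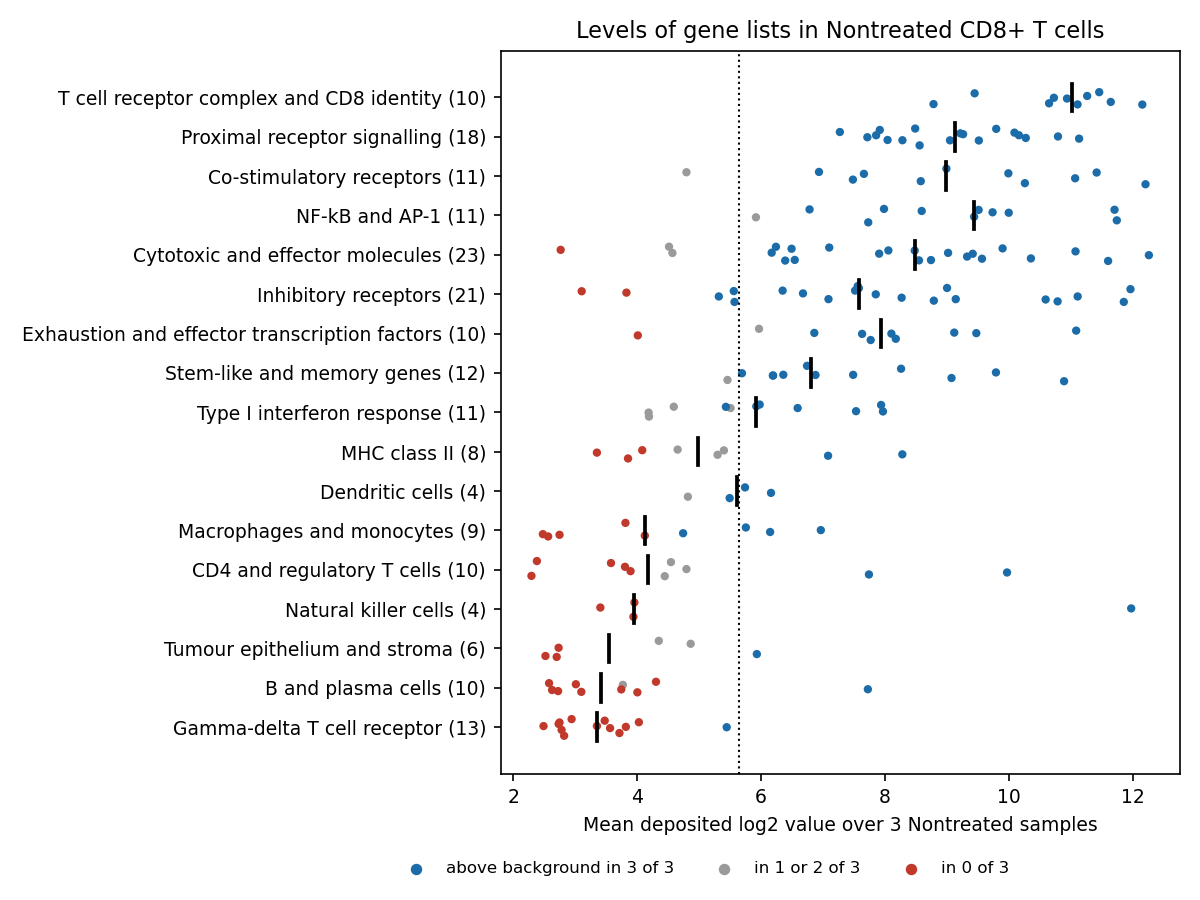
Each point is the mean of a probe over the 3 Nontreated samples (x axis, deposited log2 value) in its gene list (y axis, number of measured members in brackets). Black bars are list medians, the dotted line is the median of all probes at 5.64, and colour gives the number of samples above background. The T cell receptor and signalling lists lie to the right of the lists for other cells, in which single members such as Klrd1 and Il2ra stand apart.

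Some inhibitory receptors of exhausted T cells were among the highest probes, and the rest of the list lay lower. Of 21 measured, 19 were above background in all 3 samples (90.5%, beside 53.4% of all probes). Their median level was 7.58, beside 5.64 over all probes and 9.14 for the signalling list, and 3 ranked among the 30 highest probes and 5 among the 100 highest. Pdcd1, which encodes PD-1, was at 11.59, 11.84 and 12.15 (rank 10) and was highest in the shallowest sample. Lag3, a receptor of MHC class II, was at 10.82, 11.20 and 11.32, Ctla4, the rival of CD28 for its ligands, at 10.77, 10.85 and 10.75, and Tigit, a receptor of nectins, at 10.68, 10.76 and 10.35. Havcr2, which encodes TIM-3 of terminally exhausted cells, was lower on this scale, at 8.95, 9.38 and 9.11 (rank 102). Klrc1, the NKG2A chain, averaged 11.97 ± 0.14 (rank 8).

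The other receptors and enzymes of this list covered a wide range. Vsir, which encodes VISTA, averaged 9.01 ± 0.19 and Cd160 8.79 ± 0.50. Nt5e and Entpd1, the ectoenzymes CD73 and CD39 that make adenosine, averaged 8.27 ± 0.45 and 7.85 ± 0.14, and Adora2a, an adenosine receptor, 7.58 ± 0.53. Klrg1, a marker of short-lived effector cells, was near the threshold at 5.56 ± 0.30, as were Btla (5.57 ± 0.14) and Cd200r1 (5.32 ± 0.39). Lair1, a collagen receptor, and Ceacam1 were at background. Both ligands of PD-1 were themselves measured in the sorted cells, Pdcd1lg2 at 8.97 ± 0.11 and Cd274 at 8.26 ± 0.18.

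Of the transcription factors, Id2, which favours effector over memory fate, averaged 11.09 ± 0.13 (rank 24). Nr4a1, induced by receptor signals, averaged 9.48 ± 0.30, Batf 8.18 ± 0.09 and Irf4 8.11 ± 0.24. Tox, the factor needed for the exhausted state, was at 7.75, 7.63 and 7.53 (rank 233), and its relative Tox2 was at background. Tbx21, which encodes T-bet, was at 7.55, 7.57 and 8.20, highest in replicate 3. Eomes was at 6.59, 6.32 and 5.00, lowest and below the threshold there. Irf8, outside the lists and picked after its level was seen, averaged 10.22 ± 0.21.

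Stem-like and memory genes were detected, at lower levels as a list. Of 12 measured, 11 were above background (91.7%, beside 53.4% of all probes), with a median of 6.81. Tcf7 was at 7.85, 7.35 and 7.27, Lef1, its partner factor, at 6.40, 6.44 and 5.76, and Slamf6, a surface marker of the stem-like pool, at 6.34, 6.10 and 6.13. Ccr7, the receptor that guides T cells to lymph nodes, stood far above these on the probe scale, at 11.33, 10.64 and 10.71 (rank 31). S1pr1, the receptor that guides exit from tissue, was at 6.70, 6.17 and 6.21. Xcl1, a chemokine gene of the stem-like pool that draws dendritic cells, was at 9.90, 10.09 and 9.40, and Il7r, the interleukin 7 receptor, at 9.16, 8.75 and 9.32. Of the 12 genes, 7 were highest in replicate 1, among them Ccr7, Tcf7 and S1pr1, and 2 in replicate 2. In replicate 3, 3 were highest, among them Il7r and Foxo1 (8.23, 8.16 and 8.40). The same count was not made over all probes.

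**Figure D3:**
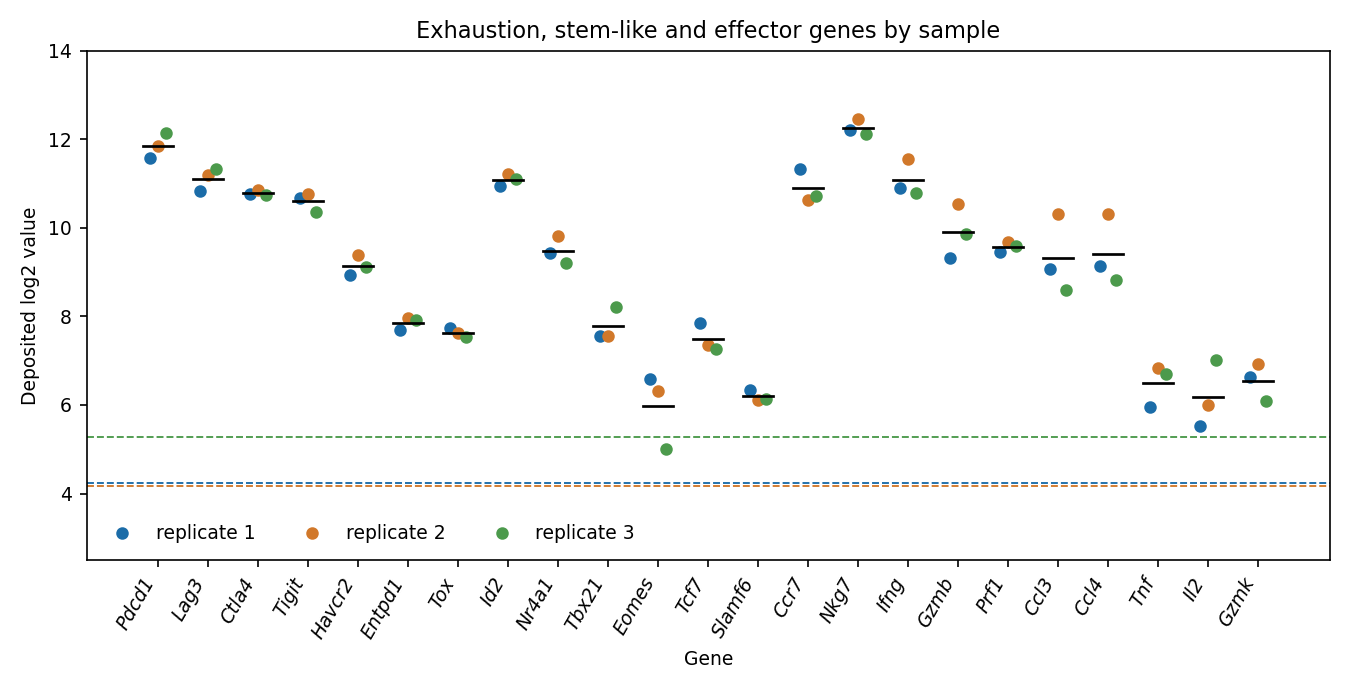
Deposited log2 value (y axis) of exhaustion, stem-like and effector genes (x axis) in each Nontreated sample, with black bars for the means and dashed lines for the background thresholds. Pdcd1, Lag3, Ctla4 and Tigit lie above 10 in every sample, Ccl3 and Ccl4 are highest in replicate 2, and Eomes falls under the threshold in replicate 3.

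Several killing genes and Ifng were high, and the effector list's other cytokine genes, Tnf, Csf2, Il2 and Il10, lay lower. Of 23 measured effector genes 20 were above background (87.0%, beside 53.4% of all probes), with a median of 8.48. Nkg7 was at 12.22, 12.46 and 12.11 (rank 2), Ccl5, a chemokine of memory and effector cells, at 11.78, 11.85 and 11.18, and Ifng, which encodes interferon-gamma, at 10.91, 11.55 and 10.78. Prf1 was at 9.46, 9.67 and 9.58. Gzmb was at 9.31, 10.55 and 9.85, a range of 1.24, and highest in replicate 2.

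Granzymes beyond Gzmb were at 9.02 ± 0.18 for Gzmc, 8.55 ± 0.24 for Gzmf, 8.48 ± 0.32 for Gzma, 8.06 ± 0.26 for Gzmd and 6.24 ± 0.45 for Gzme. Gzmk, known from less differentiated and memory cells, averaged 6.55 ± 0.42. The close sequence of several granzymes means that a probe may also read a relative. Tnf was at 5.95, 6.83 and 6.71, and Il2, whose loss is an early sign of exhaustion, at 5.53, 5.99 and 7.00. Csf2, which encodes the growth factor GM-CSF, was at 6.80, 6.56 and 5.81, and Il10, an immunosuppressive cytokine, passed in 2 samples. Tnf, Csf2 and Il2 ranked 328, 330 and 348. Ifng exceeded Il2 by 5.38, 5.56 and 3.78 on the probe scale. In unscaled molecules Il2 read 74, 121 and 64, while the normalization gave each molecule 0.624, 0.525 and 2.01 units in these samples.

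The chemokine genes Ccl3 and Ccl4, made by T cells soon after receptor signals, moved together. Ccl3 was at 9.08, 10.31 and 8.60 and Ccl4 at 9.14, 10.30 and 8.81. Both were highest in replicate 2, as were Gzmb, Ifng, Cd160 (8.62, 9.36 and 8.40), Cd69, an early activation marker (6.65, 7.44 and 6.59), and the AP-1 gene Fos (6.42, 7.47 and 6.46). The interferon-induced genes Ifit1 (5.55, 6.83 and 5.40) and Ifit3/3b (6.94, 8.17 and 7.50) were highest in that sample too. Of the 11 NF-kB and AP-1 probes 5 were highest in replicate 2 and 5 in replicate 3, among them Junb (11.62, 11.66 and 11.84). The other 1, Jun, was highest in replicate 1. Of the 23 effector genes 13 were highest in replicate 2, 9 in replicate 3 and 1 in replicate 1. Of the 11 interferon-response probes 6 were highest in replicate 2, 4 in replicate 3 and 1 in replicate 1. No such count was made over all probes, whose median was 5.57, 5.59 and 5.86 in replicates 1, 2 and 3. In all, 7 of 11 interferon-response probes were above background in all 3 samples (63.6%, near the 53.4% of all probes), with a median of 5.93 beside 5.64 over all probes. Rsad2 and Mx2, antiviral effectors, passed in 1 sample each.

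Co-stimulatory receptors had a list median of 9.00. Tnfrsf9, which encodes 4-1BB, a receptor induced by antigen, was at 12.09, 12.22 and 12.32 (rank 3). Icos averaged 11.42 ± 0.22, Tnfrsf18, the receptor GITR, 10.26 ± 0.32, Cd28 10.00 ± 0.25 and Tnfrsf4, the receptor OX40, 9.00 ± 0.47. Of 11 measured, 10 were above background in all 3 samples (90.9%, beside 53.4% of all probes). Cd40lg, the CD40 ligand typical of CD4 cells, was above it in 2. Klrk1, the receptor NKG2D, averaged 11.07 ± 0.34 and its adaptor Hcst 8.24 ± 0.55. Klrd1, the CD94 partner of Klrc1, was at 12.03, 12.17 and 11.73 (rank 7), while Klrb1, typical of natural killer cells, was at background.

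Of 11 NF-kB and AP-1 probes 10 were above background (90.9%, beside 53.4% of all probes), with a median of 9.44. They spread from rank 11 to rank 370. Tnfaip3, the A20 brake on NF-kB, averaged 11.75 ± 0.09 (rank 11) and Junb, an AP-1 factor, 11.71 ± 0.12 (rank 12). Fos, at a mean of 6.79, ranked 303, and Jun, another AP-1 factor, was at 6.58, 6.18 and 5.00 and was below the threshold in replicate 3. Stat3, which relays several interleukins, averaged 12.21 ± 0.06 (rank 4), and Il2ra, the high-affinity interleukin 2 receptor chain, 9.97 ± 0.22. Tgfb1, an immunosuppressive cytokine, averaged 11.46 ± 0.23 (rank 17). Of 40 cytokine ligands, 11 were above background in all 3 samples (27.5%), below the 53.4% of all probes.

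For residency and homing, Cxcr6, a receptor of tissue T cells, was at 11.06, 11.51 and 10.65 (rank 26) and Itgal, an LFA-1 chain, at 10.35, 10.65 and 10.72. Itgae, the CD103 chain that binds epithelium, was much lower at 5.97 ± 0.44, and Zfp683, the residency factor Hobit, was above background in 1 sample. The chemokine receptor genes Ccr2 and Cxcr3 averaged 7.83 ± 0.15 and 7.35 ± 0.27.

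Among metabolic genes, 2 of sugar breakdown led. Aldoa, the glycolytic aldolase, was at 12.49, 11.98 and 12.11 (rank 5) and Ldha at 11.08, 10.74 and 10.89 (rank 30), both highest in replicate 1. Slc2a3, a glucose transporter, averaged 7.38 ± 0.29, and Pdhb, a subunit of pyruvate dehydrogenase, 8.34 ± 0.22. Of 16 probes for glucose and pyruvate 6 were above background (37.5%, below the 53.4% of all probes), the rest being mainly liver, muscle or germ cell forms such as Fbp2 and Gapdhs. Glud1, which feeds glutamate into the citrate cycle, averaged 9.62 ± 0.16. The fatty acid genes Acsl4, Hadhb and Acadl averaged 9.44 ± 0.26, 8.57 ± 0.31 and 8.54 ± 0.11. Of 10 probes for fatty acid synthesis and oxidation, 6 were above background in all 3 samples (60%, near the 53.4% of all probes). A wider list, written after the probe names were seen, holds these and other fatty acid and retinoid enzymes. Of its 32 probes 8 were above background, a smaller share than the 53.4% of all probes. Slc7a5, an amino acid transporter, averaged 7.39 ± 0.34.

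Of 13 survival and cell death probes 11 were above background (84.6%, beside 53.4% of all probes), with a median of 8.18. Mcl1, a survival factor, averaged 10.12 ± 0.09, while Bcl2 was at 7.44, 6.01 and 7.19, lowest in replicate 2. The replication helicase genes Mcm7 and Mcm5 averaged 8.39 ± 0.15 and 8.25 ± 0.19, and the mitotic Ccnb1 was at 6.70, 7.32 and 6.53. Of 10 cell cycle probes 7 were above background in all 3 samples, with a median of 5.83, against 53.4% and 5.64 for all probes. Of 8 probes for MHC class I and antigen processing, 7 were above background (87.5%, beside 53.4% of all probes), with a median of 8.30. Of the 8, 2 stood at the top of the panel. These were H2-K1 at 12.99, 12.88 and 13.36 (rank 1 in each sample) and H2-D1 at 11.75, 11.91 and 12.01. H2-T23 and H2-M3, nonclassical class I genes, averaged 8.65 ± 0.32 and 7.82 ± 0.14. Class I genes resemble each other closely, so these probes may not separate them.

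The set of the highest probes was largely shared between the samples. The 30 probes of highest mean are 3.88% of the panel. Of each sample's 30 highest probes 26 were shared by all 3 samples, and of each sample's 100 highest 89 were. The 30 highest held 42.9% of the molecules in replicate 1 (interval 42.7 to 43.0), 42.6% in replicate 2 (42.5 to 42.8) and 40.5% in replicate 3 (40.2 to 40.8). Across the 413 probes above background the median SD was 0.21, and 46 had an SD over 0.5. Counting error alone would give a median SD of 0.09, and 241 of the 413 (58.4%) exceeded their own counting SD more than 2-fold. Smallest were the SDs of Mbd3, Ppp2r5a, Sos1, Cd96, Ppp2r5c and Aifm1, at 0.01 to 0.03. Each was below that probe's own counting SD (0.05 to 0.15), so these SDs do not rank probes by steadiness. The largest SDs after Trgc1/2/3 (1.09) were those of Ceacam2 (1.07), Ptgr1 (0.91), Cd80, H2-Ab1 and Ccl3 (0.89 each), Fcer1g (0.88) and Tapbp (0.82), then Zfp36l2, Ifit1, Ccl4 and Siglecf (0.78 to 0.79).

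**Figure D4:**
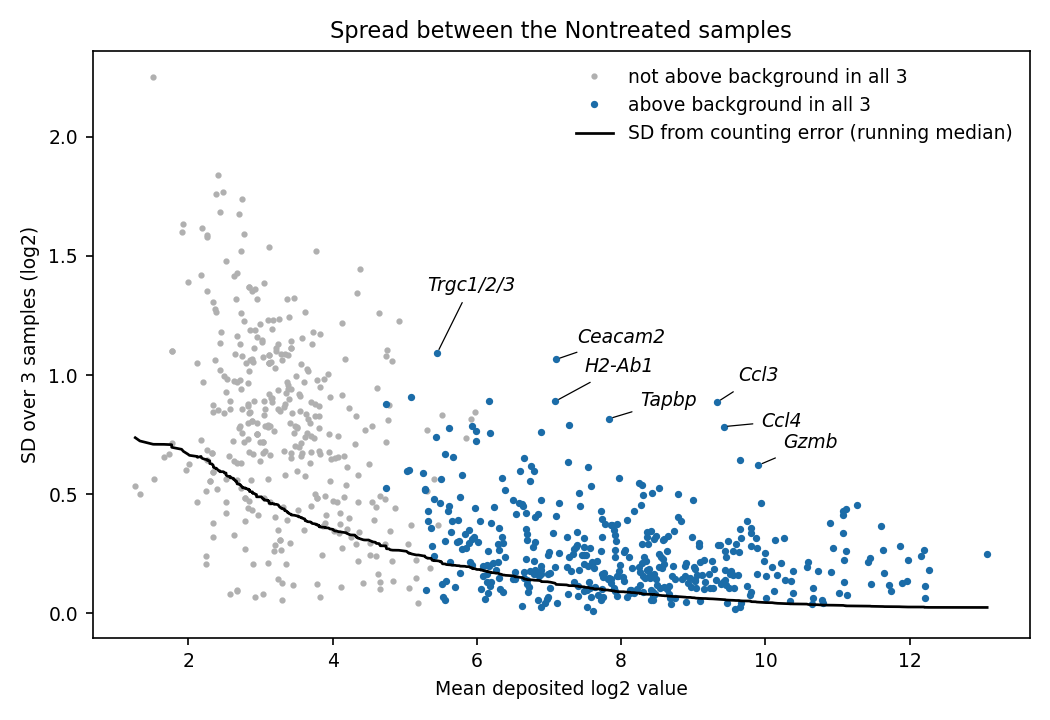
SD over the 3 Nontreated samples (y axis, log2) against the mean deposited log2 value (x axis) for each probe. The black line is the running median of the SD that counting error alone would give. Most probes above background (blue) lie under 0.5, and labelled probes such as Ceacam2 (1.07), Ccl3 (0.89) and Gzmb (0.62) lie far above the line.

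Some of the probes of largest SD had unusual counts in replicate 3, the shallowest sample. Its total was 0.284 of the mean of the other samples, and the median ratio over the 413 probes was 0.302. Ceacam2 read 146, 167 and 160 molecules, a ratio of 1.02, which correspond to levels of 6.51, 6.45 and 8.33. Ptgr1 (38, 45 and 35 molecules), Fcer1g (31, 35 and 27) and Tapbp, an antigen-loading chaperone gene (236, 353 and 215), had ratios of 0.843, 0.818 and 0.730. Ratios were also above that median for Trgc1/2/3 (0.804), which had the largest SD, Zfp36l2 (0.701) and Siglecf (0.556). The 25 background probes as a set had a ratio of 0.645, and the 296 probes above background in no sample 0.675. Ccl3, Ccl4, Cd80, H2-Ab1 and Ifit1 are not in this class, being highest in replicate 1 or 2. The part of depth in these spreads was not tested.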

How the data were processed

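The deposited values are log2 normalized counts of 773 nCounter probes, normalized by the authors in ROSALIND, per the labels. No source used here gives the software version, the background handling or the reference probes. After back-transformation each Nontreated sample's values came in equal steps, and dividing by the step gave whole molecule counts for 100% of them (tolerance 0.01). Levels, ranks, means and SDs used the deposited log2 values of these 3 samples, with pandas 2.3.3 in Python 3.11.15. Counting SDs came from the recovered counts. Of the probe names, 756 matched a RefSeq symbol, and sequences are RefSeq's (GRCm38.p6). Calls and count recovery were tested on simulated data, in which silent probes were drawn in the same way as background probes. Such data cannot show whether real silent probes behave like the background probes.

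The samples, the lists and the rules were chosen with earlier results of these data known. No comparison between groups was made, so no p-value is given. The other 9 samples were left out. Alternatives changed the background threshold, the scaling, the averaging and the samples. The background probes and 29 gene lists come from known tissue or function, and 8 more lists were written after the panel's probe names were seen. Named genes were the 30 highest probes, members of the lists, probes next to the threshold and those of largest or smallest SD, with Irf8 chosen outside this rule after its level was seen. The Citrate cycle list had 1 measured member, Got2 (6.18 ± 0.12), and no red cell or platelet marker was measured.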

Additional observations from a re-analysis of the deposited data

How the results depend on the processing

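The count of probes above background (413) was 411 with the highest background probe as the threshold, 363 with mean plus 3 SD, 429 with a linear scale, 454 for at least 2 of 3 samples, 420 for at least 20 molecules and 414 to 448 with 1 sample left out. Without H2-Q10, an MHC class I gene among the background probes, it was 422, a setting added after seeing the data. Of 324 list counts under these settings, 10 moved by over 1.5 times, all in short lists of other cells or MHC class II. With mean plus 3 SD, 2 macrophage, 0 dendritic cell, 0 tumour and stroma and 0 gamma-delta probes passed. Without replicate 3, 5 MHC class II probes passed in place of 2. Of the 30 highest probes, 29 stayed among the 30 highest without any 1 sample, and 30 did with medians over the samples. Median centring shifts the mean of every probe equally, so it could not change a rank and is no check of them. With 1 sample left out, ranks within the 30 moved, as for Nkg7 (2 to 6 without replicate 2) and Pdcd1 (10 to 14 without replicate 3). With no filter on background, 383 probes exceeded their counting SD more than 2-fold, against 241, and 193 to 208 did so with 1 sample left out. With list medians the T cell genes exceeded CD4 and regulatory T cell genes by 7.13 in place of 6.34, natural killer genes by 7.20 in place of 5.26 and immunoglobulin genes by 7.24 in place of 6.34. TMM scaling of the recovered counts was planned and not run. No paired analysis was possible because there is 1 group. Low probes of the shallowest sample are the least certain.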
